A study of Mus musculus with 24 samples.

Results

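The transcriptome of macrophages exposed to medium from KEAP1 KO lung cancer cells was compared with that of macrophages in control media, with CDDO-Me present in both. The comparison rests on 6 of the 24 libraries of the study, 3 of KEAP1 KO CM/CDDO-Me BMDMs and 3 of media/CDDO-Me BMDMs, chosen by their sample labels and not by any measured value. BMDMs are macrophages grown from the bone marrow of C57BL/6 mice with M-CSF at 20 ng/mL. CDDO-Me is a synthetic triterpenoid that activates the transcription factor NRF2, and both groups received it at 100 nM for 24 h. Conditioned medium (CM) had been held for 48 h on LL2 cells, which derive from a mouse lung tumour (Lewis lung carcinoma), and replaced 75% of the medium of the macrophages. Control media came from a plate without cancer cells. KEAP1 was disrupted with Cas9 in the LL2 cells only, so the macrophages of both groups were unedited. The other libraries used here, 3 a group, were media/vehicle and KEAP1 KO CM/vehicle BMDMs, and BMDMs given CDDO-Me with WT CM or with CM of NRF2 KO LL2 cells. Whether the 3 samples of a group came from separate mice was not stated in the sources used here, so the spread between them may be in part technical.

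KEAP1 holds NRF2 in the cytoplasm and targets it for degradation, and its loss in a cancer cell leaves NRF2 active and changes what the cell secretes. Macrophages respond to secreted signals by distinct programs. Interferons act through JAK kinases to induce guanylate-binding proteins, chemokines for T cells and the machinery of antigen presentation, whereas the cytokines that act through STAT6 induce an alternative program marked by arginase 1 and resistin-like alpha. Triterpenoids such as CDDO-Me bind KEAP1 inside the macrophage and raise antioxidant genes.

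Values are TPM, a length-corrected share of all transcripts in a library, so they can be compared between genes, but the number of reads behind each library is unknown. Per library, 17968 to 18533 of 35770 gene names were above 0 in the 6 libraries. All 10 macrophage markers were above 0 in every one of the 6 libraries, and their summed level was 25487, 22990 and 22038 TPM in media/CDDO-Me and 18601, 18001 and 17774 TPM in KEAP1 KO CM/CDDO-Me. Gene lists were tested gene by gene with limma on log2(TPM + 1) after scaling between libraries, in 1 fit of all 24 libraries, with p-values adjusted over the 13661 genes tested and compared with 0.05. Fold changes are on that log2 scale, KEAP1 KO CM/CDDO-Me over media/CDDO-Me unless stated, and understate the change of genes that are low in a group. Per-library values are given in the order of the replicate numbers, and "rose" and "fell" are used only for genes that passed the test. Some counts are also given from other fits. These weighted each library by its spread (array weights), took the replicate number as a block, or used the compared groups alone. Another took the mean log2 level of the fibroblast markers as a covariate.

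Of 13661 genes tested, 3069 (22.5%) differed with KEAP1 KO CM, with 1673 (12.2%) higher and 1396 (10.2%) lower. The large changes were mostly rises. A change of at least 1 on the log2 scale was called for 1299 genes (9.51%), 778 of them higher. At least 3 on that scale separated 152 genes that rose but 12 that fell, and at least 5 separated 45 that rose and 2 that fell. Among all genes the median log2 fold change was -0.01, and 6702 genes (49.1%) had no overlap between the 2 sets of 3 libraries. Without scaling between libraries the median moved to -0.15, and 37.4% of the genes called were higher in place of 54.5%. The NRF2 KO CM libraries of replicate 3 had the fewest genes above 0 (15702 with vehicle and 16299 with CDDO-Me), and without them 5418 genes were called. They are in neither compared group but enter the gene filter, the scaling and the estimate of the spread.

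The 12 genes of largest rise were chosen among those that reached a mean of 5 TPM and had no overlap between the 2 groups. They were chemokines, interferon-inducible GTPases and genes induced with them. Cxcl9, a chemokine that recruits activated T cells through the receptor CXCR3, was at 0, 0.0125 and 0.08399 TPM in the media/CDDO-Me libraries and at 1614, 1366 and 701 TPM in the KEAP1 KO CM/CDDO-Me libraries (log2 fold change 10.24, SE 0.24, adjusted p = 3.1e-17). Cxcl10, a ligand of the same receptor, went from 0.03597, 0.665 and 0.595 TPM to 1425, 465 and 490.1 TPM (log2 fold change 9.06, SE 0.32, adjusted p = 2.2e-14). Ccl5, which recruits T cells and monocytes, had 10.2, 4.08 and 2.82 TPM in media/CDDO-Me and 1437, 941 and 365 TPM in KEAP1 KO CM/CDDO-Me (log2 fold change 7.19, SE 0.72, adjusted p = 2.4e-07). The lack of overlap between the groups was a condition of the choice, and the levels of all 3 chemokines with CM varied among replicates. Serpina3f, a serine protease inhibitor of the interferon response, read 0.424, 0.3502 and 0.212 TPM and 230.4, 216 and 176 TPM (log2 fold change 7.41, SE 0.15, adjusted p = 1.2e-17). Calhm6, a membrane channel protein of activated macrophages, read 2.91, 2.81 and 3.16 TPM and 550.2, 512 and 565 TPM (log2 fold change 7.24, SE 0.20, adjusted p = 5.6e-16). With vehicle these 5 genes had means of 0.0586 TPM (Cxcl9) to 4.94 TPM (Ccl5) in KEAP1 KO CM and none was called higher than in media, as the plot of the 12 rises shows.

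**Figure D1:**
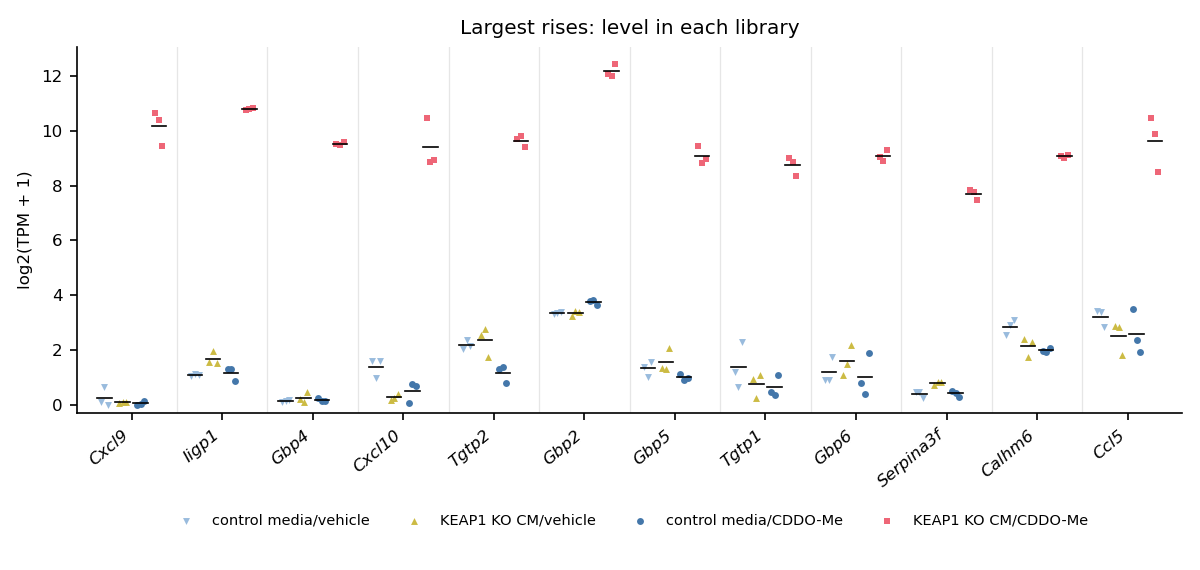
Level of the 12 genes of largest rise in each library, as log2(TPM + 1) on the y axis, for control media and KEAP1 KO CM, each with vehicle and with CDDO-Me (points, 3 libraries a group, with a bar at the mean). Every KEAP1 KO CM/CDDO-Me library lies above every library of the other 3 groups for each gene, from Cxcl9 (log2 fold change 10.24) to Ccl5 (7.19). The separation from control media with CDDO-Me was a condition of the choice.

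Interferon-inducible GTPases restrict intracellular pathogens by binding the vacuoles they live in, and comprise the guanylate-binding proteins (Gbp) and the immunity-related GTPases. All 18 tested members rose under CDDO-Me. Of these, 3 were listed at 0 in all media/CDDO-Me libraries and reached the test only through libraries of other groups. The other 15 all rose, against 12.2% of all genes. For the 15 members detected in media/CDDO-Me the median log2 fold change was 7.07, with a range from 4.44 to 9.79. Iigp1, an immunity-related GTPase, stood at 1.44, 1.48 and 0.828 TPM in media/CDDO-Me and at 1734, 1788 and 1844 TPM in KEAP1 KO CM/CDDO-Me (log2 fold change 9.79, SE 0.16, adjusted p = 3.9e-19). Gbp2 reached the highest level of the list, 4356, 4174 and 5618 TPM after 12.7, 13.1 and 11.6 TPM (log2 fold change 8.59, SE 0.22, adjusted p = 2.2e-16). Irgm1, which controls the other immunity-related GTPases and was the most abundant of those shown in control media, went from 27.5, 25.2 and 27.2 TPM to 789, 808 and 884 TPM (log2 fold change 5.06, SE 0.11, adjusted p = 1.5e-17). In each of these genes the 3 libraries of a group lay close together and the groups were far apart. Gbp10, Gbp2b and Gbp11 were listed at 0 in all 3 media/CDDO-Me libraries, so no fold is given for them. Gbp10 was at 121, 123 and 114 TPM with KEAP1 KO CM, Gbp2b at 111, 91.8 and 153 TPM and Gbp11 at 46.2, 49.5 and 94.4 TPM. Several of these genes are near copies of each other (Tgtp1 and Tgtp2, and the Gbp genes that lie side by side), and the assignment of reads among copies is uncertain.

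Antiviral interferon-stimulated genes rose almost as a whole list but by less, 37 of 39 with none lower and a median log2 fold change of 2.49. The share of all genes higher was 12.2%. Zbp1, a sensor of Z-form nucleic acids that can start necroptosis, rose most, from 4.32, 5.41 and 7.34 TPM to 334, 325 and 391 TPM (log2 fold change 5.88, SE 0.27, adjusted p = 2.1e-12). Isg15, a ubiquitin-like modifier of proteins, went from 9.91, 9.67 and 8.899 TPM to 105, 116 and 116 TPM (log2 fold change 3.58, SE 0.19, adjusted p = 2.4e-11). Ifit1, which binds viral RNA that lacks the host cap structure, went from 1.65, 0.989 and 1.75 TPM to 33.5, 37.1 and 52.8 TPM (log2 fold change 4.21, SE 0.28, adjusted p = 5.7e-10). The small spread of these genes among the 3 CM libraries contrasts with that of the chemokines. Mx1, a dynamin-like GTPase that blocks viruses, changed less, from 8.82, 8.65 and 13.4 TPM to 36.5, 39.8 and 48.1 TPM (log2 fold change 2.08, SE 0.33, adjusted p = 8.4e-05). Rsad2, an enzyme that makes a chain-terminating nucleotide, went from 1.44, 1.41 and 2.43 TPM to 3.93, 3.705 and 7.05 TPM (log2 fold change 1.19, SE 0.21, adjusted p = 0.00022). The 2 members that did not pass were Isg20, an exonuclease (log2 fold change -0.15, adjusted p = 0.8), and Ifi207 (0.73, adjusted p = 0.1).

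The components that carry the interferon signal did not all move. Ifng and Ifnb1, the genes of interferon gamma and beta, were listed at 0 in all 6 libraries. Among the receptor chains, Ifngr1 (log2 fold change 0.01, adjusted p = 0.98), Ifngr2 (0.17, adjusted p = 0.59) and Ifnar1 (-0.09, adjusted p = 0.66) did not pass. Ifnar2, the other chain of the type I receptor, rose by 0.91 (SE 0.18, adjusted p = 0.00076). Of the kinase genes Jak1 did not pass (0.04, adjusted p = 0.84), whereas Jak2 (1.29, SE 0.13, adjusted p = 2.3e-07) and Tyk2 (0.92, SE 0.18, adjusted p = 0.00072) rose. Of the whole list of receptors, kinases, transcription factors and feedback inhibitors 15 of 20 tested members were higher and none lower, with a median of 1.20. The share of all genes higher was 12.2%. Irf1, an interferon-induced transcription factor gene, rose from 59.7, 50.1 and 76.5 TPM in media/CDDO-Me to 917, 858 and 959 TPM in KEAP1 KO CM/CDDO-Me (log2 fold change 4.03, SE 0.25, adjusted p = 2.7e-10). Batf2, a partner of IRF1 in macrophages, rose from 4.52, 3.895 and 6.52 TPM to 355, 303 and 345 TPM (log2 fold change 5.98, SE 0.24, adjusted p = 2.2e-13). Both had every CM library above every control media library, with little spread, where 49.1% of all genes had no overlap in either direction. Socs1, the feedback inhibitor of JAK kinases, rose from 0.949, 0.912 and 0.786 TPM to 106, 109 and 126 TPM (log2 fold change 6.05, SE 0.21, adjusted p = 1.5e-14). It also rose with vehicle, from 1.196, 0.978 and 0.652 TPM in media to 19.1, 18.6 and 28.2 TPM in KEAP1 KO CM (log2 fold change 3.51, adjusted p = 5.4e-10). Smaller rises were measured for Irf7, a driver of type I interferon genes (log2 fold change 3.43), Stat2 (2.54), Irf8 (1.78) and Irf9, the DNA-binding partner of STAT2 (1.10).

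The promoters of 3 genes that rose are shown because their letters include the element that interferon-activated factors are known to read. Each is the 250 bases before the annotated start of the gene in the GENCODE annotation of GRCm39, written 5′ to 3′ on the strand of the gene. Capitals mark the interferon element (TTTC, any 2 letters and TTTC, or GAAA, any 2 letters and GAAA on the opposite strand) read by IRF9 and other IRFs. Cxcl10 (chr5:92496749-92496998, minus strand) has 1 interferon element, Zbp1 (chr2:173060725-173060974, minus strand) has 4 matches to it, which overlap in pairs, and Cd274 (chr19:29344279-29344528, plus strand) has 1 interferon element.
Cxcl10: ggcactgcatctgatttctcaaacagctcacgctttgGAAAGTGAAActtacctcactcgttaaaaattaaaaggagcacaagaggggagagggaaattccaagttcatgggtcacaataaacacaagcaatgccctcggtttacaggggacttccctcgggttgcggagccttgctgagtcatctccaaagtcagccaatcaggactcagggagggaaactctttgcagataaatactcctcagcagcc
Zbp1: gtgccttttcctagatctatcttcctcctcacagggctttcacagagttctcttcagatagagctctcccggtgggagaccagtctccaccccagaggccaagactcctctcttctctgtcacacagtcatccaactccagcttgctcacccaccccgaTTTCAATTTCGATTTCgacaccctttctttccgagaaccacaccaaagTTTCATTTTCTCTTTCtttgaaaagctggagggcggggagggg
Cd274: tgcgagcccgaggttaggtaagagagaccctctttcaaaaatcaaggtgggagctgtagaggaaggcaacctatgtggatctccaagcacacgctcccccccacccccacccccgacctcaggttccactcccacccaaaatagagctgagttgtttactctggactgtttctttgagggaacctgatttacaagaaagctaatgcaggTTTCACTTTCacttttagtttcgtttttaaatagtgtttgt

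Over the promoters of this length that could be read for the genes tested, 3.19% of 12741 held the interferon element. The share was 6.79% of 1619 promoters of genes that rose, 19.1% of 141 of those that rose by at least 3 on the log2 scale, and 3.16% of 1361 of those that fell. Among the antiviral genes 19 of 39 promoters (48.7%) held it, and among the GTPases 6 of 18 (33.3%). The STAT6 site (TTC, any 4 letters and GAA, the same on both strands) was also in 6 of 18 GTPase promoters (33.3%), against 5.38% of tested promoters and 6 of 39 antiviral ones (15.4%). These are descriptions of letters within 250 bases, near copies among the GTPase genes share sequence, and no binding was measured.

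Genes of MHC class I presentation, which display peptides from inside the cell to CD8 T cells, rose in 22 of 23 tested members with none lower (median log2 fold change 2.24). The share of all genes higher was 12.2%. B2m, the invariant light chain of class I molecules, was already abundant at 4175, 3940.3 and 4131 TPM in media/CDDO-Me and reached 11356, 11548 and 11317 TPM in KEAP1 KO CM/CDDO-Me (log2 fold change 1.64, SE 0.36, adjusted p = 0.0021). Tap1, a subunit of the transporter that carries peptides into the endoplasmic reticulum, rose from 23.4, 22.4 and 19.8 TPM to 349, 333 and 361 TPM (log2 fold change 4.09, SE 0.27, adjusted p = 4.2e-10). Psmb9, an inducible subunit of the immunoproteasome, rose from 31.3, 28.6 and 37.2 TPM to 274, 282 and 247 TPM (log2 fold change 3.17, SE 0.17, adjusted p = 1.5e-11). These parts of the machinery that cuts and loads peptides had larger log2 fold changes than the light chain, which was abundant from the start. Nlrc5, the transactivator of class I genes, rose from 16.2, 15.1 and 16.9 TPM to 86.6, 108 and 104 TPM (log2 fold change 2.71, SE 0.20, adjusted p = 2.9e-09). Among the heavy chains H2-K1 rose by 1.83 (SE 0.20, adjusted p = 9e-07), and H2-D1 did not pass (0.59, adjusted p = 0.092), and reads of these similar genes may be shared.

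Class II presentation, which displays ingested antigen to CD4 T cells, had 11 of 17 tested members higher and none lower, with a median log2 fold change of 2.35. Among all genes 12.2% were higher. In other fits 1 member was lower, with the replicate block, array weights, the fibroblast covariate or the compared groups alone. The same count was found without scaling and without the replicate 3 libraries of NRF2 KO CM. Ciita, the master transactivator of class II genes, went from 3.599, 2.79 and 4.44 TPM in media/CDDO-Me to 121, 156 and 188 TPM in KEAP1 KO CM/CDDO-Me (log2 fold change 5.22, SE 0.30, adjusted p = 5.2e-11). H2-Ab1, a class II beta chain, went from 129, 132 and 137 TPM to 3158, 2972 and 3537 TPM (log2 fold change 4.74, SE 0.32, adjusted p = 7.6e-10). Cd74, the invariant chain that guards the class II groove, went from 732, 647 and 718 TPM to 11221, 11018 and 12447 TPM (log2 fold change 4.20, SE 0.29, adjusted p = 9.6e-10). The transactivator, the chains and the invariant chain moved together. H2-Aa (log2 fold change 4.32), H2-Eb1 (4.63) and the peptide editor chain H2-DMa (4.15) rose as well. The proteases of the endosome were not among the risers, with Ctss at 0.33 (adjusted p = 0.19) and Ctsl at -0.81 (adjusted p = 0.099).

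**Figure D2:**
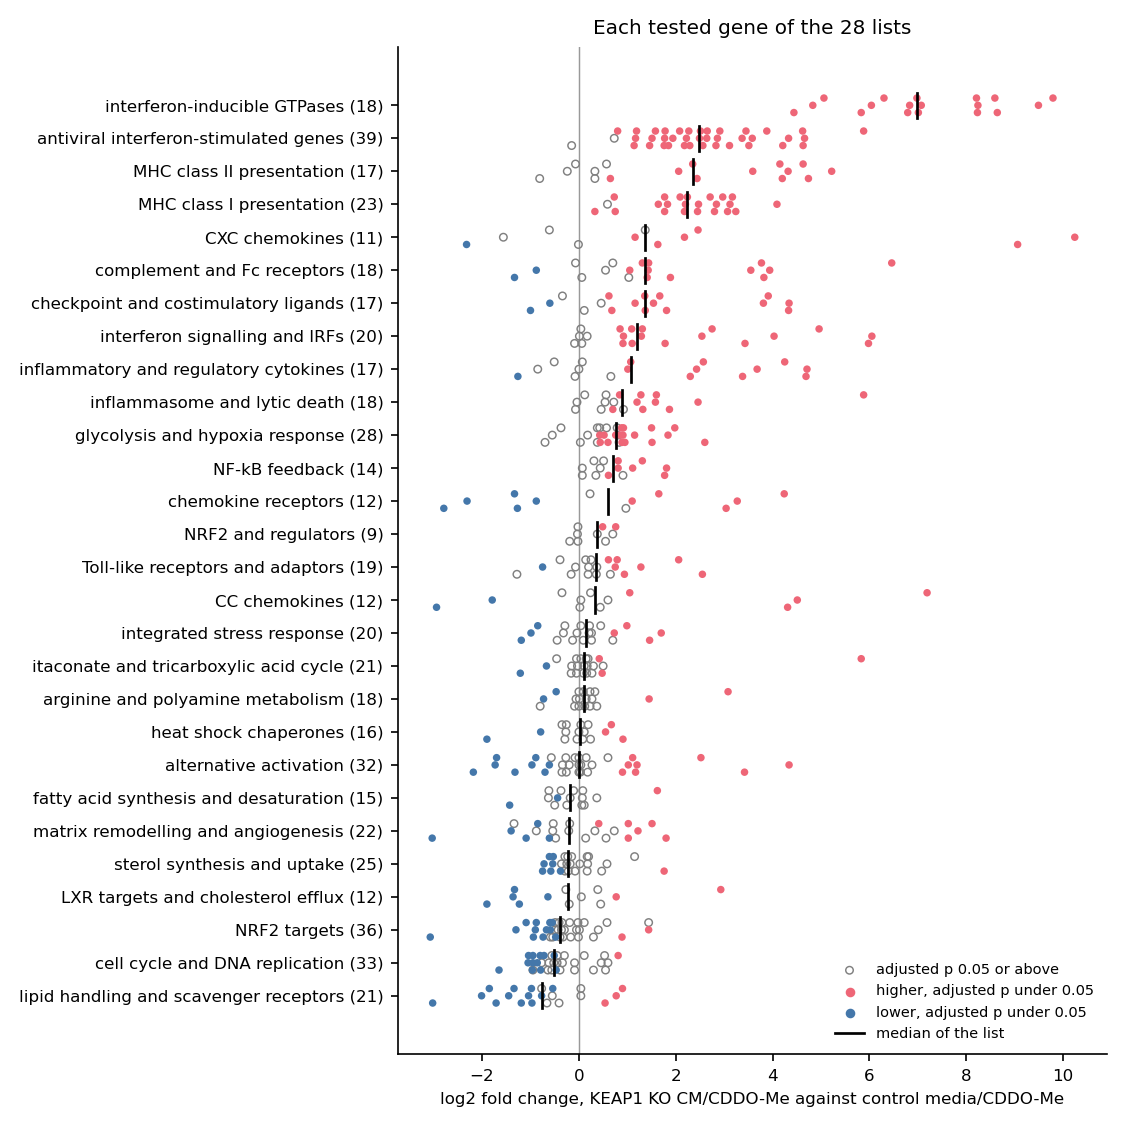
Log2 fold change of each tested gene of the 28 gene lists (x axis), KEAP1 KO CM/CDDO-Me against media/CDDO-Me, 1 row a list with the number of genes in parentheses, ordered by the median (black bar). Filled points passed an adjusted p of 0.05 and open points did not. The interferon-inducible GTPases (all 18 higher, 3 of them listed at 0 in media/CDDO-Me) lie farthest to the right. Lipid handling and scavenger receptors (12 of 21 lower) have the lowest median, -0.77.

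Ligands that a macrophage shows to T cells rose in 12 of 17 tested members and fell in 2, against 12.2% and 10.2% of all genes. Cd274, which encodes the inhibitory ligand PD-L1, rose from 15.7, 13.6 and 28.2 TPM to 342, 313 and 392 TPM (log2 fold change 4.33, SE 0.30, adjusted p = 1.1e-09). Pdcd1lg2, the gene of the second ligand of the same receptor, rose from 0.0868, 0.142 and 0.383 TPM to 16.6, 21.2 and 28.5 TPM (log2 fold change 4.34, SE 0.29, adjusted p = 7.1e-10), and was also higher in CM with vehicle (log2 fold change 5.0, adjusted p = 5e-10). Activating ligands rose beside these inhibitory ones. Cd86, a costimulator that engages CD28, rose from 3.59, 3.56 and 3.698 TPM to 60.3, 54.3 and 71.4 TPM (log2 fold change 3.91, SE 0.37, adjusted p = 1.4e-07). Cd40, the receptor through which helper T cells license antigen-presenting cells, rose from 3.603, 3.46 and 2.96 TPM to 112, 34.1 and 40.8 TPM (log2 fold change 3.81, SE 0.27, adjusted p = 1.2e-09), with the replicate 1 CM library the highest. Cd276 (-1.0, SE 0.16, adjusted p = 8.6e-05) and Cd48 (-0.60, SE 0.13, adjusted p = 0.0023) fell.

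Chemokines did not form a block that moved together. Of the CXC chemokines 6 of 11 tested members were higher and 1 lower (Pf4; 2 with the replicate block or array weights). Of the CC chemokines 4 of 12 were higher (Ccl5, Ccl8, Ccl12 and Ccl2) and 2 lower (Ccl3 and Ccl9). Among all genes 12.2% were higher and 10.2% lower, and the lower count of the CXC chemokines lay near that share. Cxcl16, a chemokine held on the membrane, rose from 89.3, 85.1 and 87.8 TPM to 305, 241 and 197 TPM (log2 fold change 1.63, SE 0.21, adjusted p = 6.9e-06). Cxcl5, a neutrophil attractant, rose from 7.88, 6.51 and 4.14 TPM to 58.5, 25.8 and 13.8 TPM (log2 fold change 2.18, SE 0.49, adjusted p = 0.0026). Cxcl1, another neutrophil attractant, was at 2.798, 1.61 and 2.07 TPM and 33.9, 11.6 and 7.64 TPM (log2 fold change 2.46, SE 0.40, adjusted p = 0.0001), and its log2 fold change was 1.86 without replicate 1 of KEAP1 KO CM/CDDO-Me. The monocyte attractants Ccl8 and Ccl12 of the CC family rose under both treatments, as did Cxcl5. Ccl2, another, was at 106, 107 and 80.1 TPM and 280.4, 226 and 92.9 TPM under CDDO-Me (log2 fold change 1.05, SE 0.30, adjusted p = 0.014), but its call was lost without replicate 1 of KEAP1 KO CM/CDDO-Me (0.72, adjusted p = 0.1), without its replicate 2 (0.93, adjusted p = 0.059), without replicate 3 of media/CDDO-Me (0.96, adjusted p = 0.054) and with the compared groups alone (1.04, adjusted p = 0.083). Ccl8 rose from 2.91, 1.38 and 1.99 TPM to 64.3, 75.3 and 48.8 TPM under CDDO-Me (log2 fold change 4.51, SE 0.34, adjusted p = 4.2e-09) and by 5.10 with vehicle (adjusted p = 3.9e-09). Ccl12 rose from 0, 0.229 and 0.3201 TPM to 23.7, 31.9 and 11.7 TPM under CDDO-Me (log2 fold change 4.31, SE 0.43, adjusted p = 2.3e-07) and by 5.41 with vehicle (adjusted p = 4.7e-08).

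Other chemokines fell. Ccl9 went from 258, 210 and 266 TPM in media/CDDO-Me to 36.98, 25.5 and 22.2 TPM in KEAP1 KO CM/CDDO-Me (log2 fold change -2.94, SE 0.28, adjusted p = 1.5e-07), whereas with vehicle it rose in CM (log2 fold change 2.51, adjusted p = 5.3e-06). Pf4, a heparin-binding chemokine that macrophages as well as platelets make, fell from 62.9, 70.9 and 73.7 TPM to 9.47, 12.3 and 13.7 TPM (log2 fold change -2.32, SE 0.23, adjusted p = 2.3e-07). Ccl3 fell from 39.7, 39.6 and 42.8 TPM to 12.3, 9.37 and 8.39 TPM (log2 fold change -1.79, SE 0.25, adjusted p = 2.1e-05). Among chemokine receptors 5 of 12 tested were higher, among them Fpr2, Ccr1, Ccr2 and Ccrl2, and 5 lower (Cx3cr1, Cxcr4, C5ar1, Ccr3 and C3ar1). The shares of all genes were 12.2% higher and 10.2% lower. The call of Ccrl2 was lost without replicate 1 of KEAP1 KO CM/CDDO-Me (0.82, adjusted p = 0.1), without replicate 1 of media/CDDO-Me (1.03, adjusted p = 0.06) and without scaling (0.95, adjusted p = 0.053). Ccr2, the receptor that brings monocytes into tissue, rose from 8.21, 8.101 and 4.73 TPM to 16.2, 24.5 and 23.6 TPM (log2 fold change 1.65, SE 0.22, adjusted p = 1.2e-05). Fpr2, a receptor for formylated and lipid ligands, rose from 0.593, 1.84 and 1.22 TPM to 81.6, 23.02 and 24.9 TPM (log2 fold change 4.24, SE 0.42, adjusted p = 2.3e-07), and by 3.65 without replicate 1 of KEAP1 KO CM/CDDO-Me. Cx3cr1, the fractalkine receptor of resident macrophages, fell from 11.9, 13.3 and 6.61 TPM to 0.782, 0.704 and 0.177 TPM (log2 fold change -2.79, SE 0.36, adjusted p = 7.6e-06). Cxcr4, the receptor that holds cells in marrow, fell from 83.97, 66.95 and 109 TPM to 17.2, 10.7 and 17.1 TPM (log2 fold change -2.31, SE 0.34, adjusted p = 3.6e-05).

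Inflammatory and regulatory cytokines and their receptors rose in 10 of 17 tested members and fell in 1 (Spp1), or in 2 with the replicate block. Among all genes 12.2% were higher and 10.2% lower. Tnf, tumour necrosis factor, went from 9.202, 8.49 and 9.19 TPM to 74.7, 38.4 and 36.5 TPM (log2 fold change 2.43, SE 0.24, adjusted p = 2.4e-07), and was lower in CM with vehicle (log2 fold change -1.67, adjusted p = 0.00011). Il1b, interleukin 1 beta, went from 2.103, 0.418 and 0.114 TPM to 129.9, 13.8 and 32.5 TPM (log2 fold change 4.69, SE 0.69, adjusted p = 3.4e-05). Il6, interleukin 6, went from 0.454, 1.28 and 0.617 TPM to 18.2, 6.17 and 2.7 TPM (log2 fold change 2.30, SE 0.44, adjusted p = 0.00053). These 3 were highest in the replicate 1 library of KEAP1 KO CM/CDDO-Me, and without it the log2 fold change was 3.83 for Il1b and 1.66 for Il6. Without replicate 2 that of Il1b was 5.46. Il27, a cytokine subunit that acts on T cells, rose from 0.669, 0.556 and 1.504 TPM to 52.9, 39.2 and 41.2 TPM (log2 fold change 4.71, SE 0.28, adjusted p = 9.8e-11). Il18bp, a soluble decoy for interleukin 18, rose from 15.5, 18.04 and 21.6 TPM to 222, 225 and 212 TPM (log2 fold change 3.68, SE 0.30, adjusted p = 1e-08). Tnfsf10, the death ligand TRAIL, rose from 0.205, 0.0631 and 0.189 TPM to 17.2, 15.6 and 26.9 TPM (log2 fold change 4.25, SE 0.19, adjusted p = 1.4e-12). Each of the last 3 was higher in every CM library than in every control media library, and 49.1% of all genes had no overlap in either direction. Il10, an anti-inflammatory cytokine, rose by 1.01 (SE 0.23, adjusted p = 0.003), and Spp1, osteopontin, fell from 2065, 2072 and 1928 TPM to 763, 935 and 609.5 TPM (log2 fold change -1.26, SE 0.19, adjusted p = 3.9e-05).

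Genes of NF-kB and its feedback inhibitors changed little in size, 7 of 14 higher, none lower and a median log2 fold change of 0.71. The shares of all genes were 12.2% higher and 10.2% lower. Bcl3 (1.77, SE 0.26, adjusted p = 4e-05) and Nfkbiz (1.31, SE 0.19, adjusted p = 2.2e-05), nuclear partners of NF-kB, rose. Nfkbia, the main cytoplasmic inhibitor, did not pass (0.44, adjusted p = 0.35), with 179.6, 60.99 and 59.4 TPM in the 3 KEAP1 KO CM/CDDO-Me libraries and the first of them again the highest. Acod1, the enzyme that makes itaconate, showed the same order, from 0.87, 0.543 and 1.97 TPM in media/CDDO-Me to 331, 58.95 and 60.5 TPM in KEAP1 KO CM/CDDO-Me (log2 fold change 5.83, SE 0.44, adjusted p = 3.8e-09), and its log2 fold change was 5.0 without replicate 1. Nos2, the inducible nitric oxide synthase, went from 0.123, 0.0824 and 0.0988 TPM to 21.3, 8.75 and 2.03 TPM (log2 fold change 3.08, SE 0.49, adjusted p = 8.5e-05), with 2.38 without replicate 1 and 3.84 without replicate 3. All 3 CM libraries were above all 3 control media libraries for both Acod1 and Nos2, while the spread among the CM libraries was wide. Such a lack of overlap, in either direction, was found for 49.1% of all genes.

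Sensors and effectors of lytic death rose in 10 of 18 tested members with none lower. Among all genes 12.2% were higher and 10.2% lower, here and for the Toll-like receptors below. Casp4, the caspase that senses cytosolic lipopolysaccharide, rose from 18.4, 21.6 and 22.5 TPM to 119, 85.4 and 120.3 TPM (log2 fold change 2.46, SE 0.33, adjusted p = 1.2e-05). Mlkl, the pore former of necroptosis, rose from 16.6, 16.4 and 22.7 TPM to 61.5, 58.4 and 67.96 TPM (log2 fold change 1.87, SE 0.20, adjusted p = 5.2e-07), and Gsdmd, the pore former of pyroptosis, from 116, 113 and 150 TPM to 276, 282 and 286 TPM (log2 fold change 1.32, SE 0.19, adjusted p = 3.2e-05). Both routes of membrane rupture were thus among the risers at the RNA level. Of the Toll-like receptors and adaptors 7 of 19 tested were higher and 1 lower (Tlr13; 2 without replicate 3 of KEAP1 KO CM/CDDO-Me and 2 or 3 under 8 other settings), led by Sting1, the adaptor for cytosolic DNA, from 51.6, 56.9 and 46.01 TPM to 264, 275 and 283 TPM (log2 fold change 2.55, SE 0.13, adjusted p = 7.1e-12). Tlr9, a receptor for DNA in endosomes, rose by 2.06 (SE 0.27, adjusted p = 7.8e-06).

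Complement components and Fc receptors rose in 11 of 18 tested members and fell in 2 (C5ar1 and C3ar1), against 12.2% and 10.2% of all genes. Fcgr4, a receptor for IgG that drives antibody-dependent killing, had the largest rise of the list, from 14.1, 11.3 and 14.3 TPM to 1112, 1006 and 1274 TPM (log2 fold change 6.46, SE 0.27, adjusted p = 3.9e-13). Fcgr1, the high-affinity receptor for IgG, rose from 38.7, 34.4 and 35.96 TPM to 427, 459 and 532 TPM (log2 fold change 3.82, SE 0.15, adjusted p = 1.6e-13). Cfb, a protease of the alternative complement pathway, rose from 2.72, 4.2 and 2.34 TPM to 66.8, 38.8 and 43.7 TPM (log2 fold change 3.77, SE 0.22, adjusted p = 9.8e-11). C3 rose by 3.55 (SE 0.33, adjusted p = 9.7e-08). The anaphylatoxin receptor C5ar1 fell, from 130, 117 and 84.4 TPM to 56.1, 43.7 and 22.7 TPM (log2 fold change -1.33, SE 0.28, adjusted p = 0.0014).

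The alternative activation list was divided under CDDO-Me, with 8 of 32 tested members higher, 8 lower and a median log2 fold change of 0.00. In this comparison 12.2% of all genes were higher and 10.2% lower. With vehicle the same medium had 25 of the 32 higher than media and none lower, with a median of 1.70, against 4.65% of all genes higher and 3.31% lower in that comparison. The difference between the CM effects under CDDO-Me and under vehicle was itself called lower for 25 members and higher for 3 (Il4ra, Tgm2 and Il13ra1), against 6.36% and 8.38% of all genes. Retnla, resistin-like alpha, was listed at 0 in all 6 libraries with CDDO-Me, while KEAP1 KO CM/vehicle had 1504, 1389.8 and 1883 TPM and media/vehicle had 0. Arg1, arginase 1, was at 0.09897, 0.0269 and 0.0943 TPM in media/CDDO-Me and 0.124, 0.02903 and 0.0423 TPM in KEAP1 KO CM/CDDO-Me (0.00, adjusted p = 1), while with vehicle it was at 0.0884, 0.301 and 0.128 TPM in media and 947, 936 and 1121 TPM in KEAP1 KO CM (log2 fold change 9.68, adjusted p = 5.6e-17). Chil3, a chitinase-like secreted protein, was at 2.73, 4.56 and 1.39 TPM and 1.33, 3.43 and 1.27 TPM under CDDO-Me and at 592, 592 and 1196 TPM in KEAP1 KO CM/vehicle. For Arg1 and Chil3 the CM libraries with CDDO-Me overlapped those of control media.

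Some receptors of the program rose nonetheless. Il4ra, the receptor chain shared by interleukin 4 and interleukin 13, went from 63.98, 64.1 and 56.95 TPM to 351, 352 and 269 TPM (log2 fold change 2.52, SE 0.13, adjusted p = 1.6e-11). Clec10a, a lectin of alternatively activated macrophages, went from 40.4, 43.6 and 30.5 TPM to 67.97, 84.9 and 70.2 TPM (log2 fold change 1.11, SE 0.17, adjusted p = 5.7e-05), and had 251, 274 and 271 TPM in KEAP1 KO CM/vehicle. Stat6 did not pass (0.03, adjusted p = 0.91). Igf1, a growth factor made by tissue macrophages, fell from 509, 487 and 488 TPM to 88.6, 98.1 and 106 TPM (log2 fold change -2.18, SE 0.24, adjusted p = 9.8e-07). Egr2 (-1.70, SE 0.21, adjusted p = 5e-06), Pparg (-1.32, SE 0.12, adjusted p = 5.3e-08) and Itgax (-1.73, SE 0.19, adjusted p = 7.4e-07) fell with it, the first 2 of them transcription factor genes of the program. Mrc1, the mannose receptor, was at 134, 137 and 105 TPM and 55.98, 73.5 and 52.2 TPM (log2 fold change -0.89, SE 0.25, adjusted p = 0.013), but its call was lost without replicate 3 of KEAP1 KO CM/CDDO-Me (-0.80, adjusted p = 0.06), and without that library 5 members of the list were lower in place of 8. Of the 18 genes of arginine and polyamine metabolism 2 were higher (4 with array weights), Nos2 and Ass1, which rebuilds arginine from citrulline (1.45, SE 0.36, adjusted p = 0.0054). Also 2 were lower, the polyamine genes Srm (-0.73, SE 0.18, adjusted p = 0.0048) and Azin1 (-0.47, SE 0.10, adjusted p = 0.0011). These counts lay near the shares of all genes tested, 12.2% higher and 10.2% lower.

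**Figure D3:**
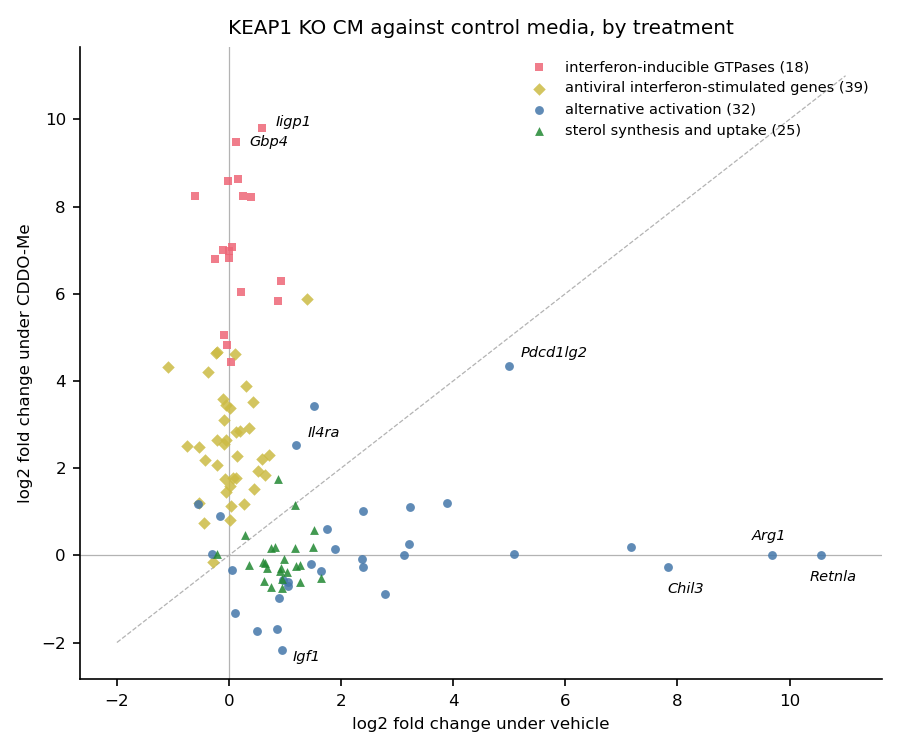
Log2 fold change of KEAP1 KO CM against control media with vehicle (x axis) and with CDDO-Me (y axis) for the tested genes of 4 lists, with the line of equal change dashed. GTPases (18) and antiviral genes (39) rise along the y axis with little change on the x axis, whereas alternative activation genes such as Arg1 (9.68 with vehicle and 0.00 with CDDO-Me) lie along the x axis.

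Genes of lipid handling and scavenger receptors fell more often than the average gene, 12 of 21 lower and 3 higher, with a median log2 fold change of -0.77. Among all genes 10.2% were lower and 12.2% higher. Fabp4, a fatty acid carrier of lipid-laden macrophages, fell from 250.3, 239.8 and 195 TPM to 22.7, 26.4 and 23.9 TPM (log2 fold change -3.02, SE 0.19, adjusted p = 2.3e-10). Stab1, a scavenger receptor, fell from 291, 293 and 246 TPM to 60.5, 73.96 and 49.5 TPM (log2 fold change -2.01, SE 0.20, adjusted p = 2.4e-07). Gpnmb, a membrane protein of phagocytes, fell from 3241, 3364 and 4328 TPM to 837, 952 and 1208 TPM (log2 fold change -1.71, SE 0.33, adjusted p = 0.00059). Each fall separated the groups without overlap, as 49.1% of all genes did in either direction. Plin2, the coat protein of lipid droplets, fell by 1.19 (SE 0.13, adjusted p = 8e-07). The 3 members that were higher, Msr1, Olr1 and Mertk, came down to 1 without replicate 1 or 2 of media/CDDO-Me and without replicate 1 or 3 of KEAP1 KO CM/CDDO-Me. Of the LXR targets, which export cholesterol, 5 of 12 were lower (Abca1, Apoc1, Apoc2, Apoe and Nr1h3) and 2 higher (Ch25h and Nr1h2), with 1 higher without scaling, without a filter and in 5 of the 6 fits that left out a library of these groups, all but that without replicate 3 of media/CDDO-Me. The call of Nr1h3 was lost without replicate 3 of KEAP1 KO CM/CDDO-Me (-0.89, adjusted p = 0.088) and without replicate 1 (-1.09, adjusted p = 0.057) or replicate 2 (-1.12, adjusted p = 0.053) of media/CDDO-Me, and that of Apoe without a filter (-0.64, adjusted p = 0.3). Abca1, a cholesterol exporter, fell from 36.6, 38.1 and 32.9 TPM to 14.1, 11.8 and 10.96 TPM (log2 fold change -1.33, SE 0.09, adjusted p = 4.9e-10), and the apolipoprotein gene Apoc1 from 5.29, 3.74 and 1.81 TPM to 0, 0 and 0.426 TPM (log2 fold change -1.90, SE 0.39, adjusted p = 0.0011). Ch25h, an interferon-inducible enzyme that makes an oxysterol, rose from 2.64, 3.46 and 2.35 TPM to 20.2, 19.4 and 40.5 TPM (log2 fold change 2.93, SE 0.52, adjusted p = 0.00028).

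Sterol synthesis genes differed by treatment. With vehicle 19 of 25 tested members were higher in KEAP1 KO CM than in media and none lower. With CDDO-Me 1 was higher (Pmvk) and 7 lower, and these counts depended on the fit. Lower members came to 2 without replicate 3 of KEAP1 KO CM/CDDO-Me and to 4 without replicate 2 of media/CDDO-Me. They came to 4 with the fibroblast covariate and to 3 with the compared groups alone. Higher members came to 2 with the replicate block, 3 with the fibroblast covariate and 4 with the compared groups alone. They came to 4 without the replicate 3 libraries of NRF2 KO CM and to 8 with array weights. The difference between the effects was called lower for 17 members. Hmgcs1, an early enzyme of the pathway, was at 44.2, 42.1 and 47.3 TPM in media/CDDO-Me and 25.2, 25.02 and 21.6 TPM in KEAP1 KO CM/CDDO-Me (log2 fold change -0.72, SE 0.15, adjusted p = 0.001). With vehicle its values were 60.1, 67.97 and 74.3 TPM and 111, 119 and 114 TPM (log2 fold change 0.75, adjusted p = 0.0021). Fatty acid synthesis followed a like division, with 8 of 15 tested members higher with vehicle, against 4.65% of all genes. With CDDO-Me 1 was higher (Acsl1) and 2 lower (Acss2 and Mid1ip1), against 12.2% higher and 10.2% lower among all genes. The higher count was 2 with the replicate block, array weights or the fibroblast covariate. The call of Mid1ip1 was lost without replicate 3 of media/CDDO-Me (-0.28, adjusted p = 0.076), and 4 were lower with array weights or without the replicate 3 libraries of NRF2 KO CM. Acss2, which makes acetyl-CoA from acetate, fell from 92.2, 81.97 and 98.7 TPM to 43.7, 26 and 22.7 TPM (log2 fold change -1.43, SE 0.25, adjusted p = 0.00019), and Acsl1, which activates long-chain fatty acids, rose from 20.8, 21.3 and 21.6 TPM to 107, 45.3 and 45.8 TPM (log2 fold change 1.62, SE 0.21, adjusted p = 8.1e-06).

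NRF2 targets, the genes that CDDO-Me is known for, were lower in 12 of 36 tested members in KEAP1 KO CM/CDDO-Me than in media/CDDO-Me. They were higher in 2 (Txn1 and Gstp1; 4 with the replicate block and 6 with array weights), with a median log2 fold change of -0.40 over the list. When the replicate 3 libraries of NRF2 KO CM were left out of the fit, 20 were lower and 4 higher. Over all genes tested 10.2% were lower and 12.2% higher. With vehicle 7 of the 36 targets were already lower in KEAP1 KO CM than in media and none higher. The difference between the CM effects under CDDO-Me and under vehicle was called higher for 4 targets and lower for 4. Gsta3, a glutathione transferase, fell from 88.9, 67.4 and 111 TPM to 10.8, 5.71 and 9.805 TPM (log2 fold change -3.07, SE 0.33, adjusted p = 5.5e-07). Gstm1, another, fell from 775, 693 and 853 TPM to 285, 280.3 and 275 TPM (log2 fold change -1.30, SE 0.18, adjusted p = 1.4e-05). Gclc, the catalytic subunit of glutathione synthesis, fell by 1.09 (SE 0.28, adjusted p = 0.0076). The classical reporters of NRF2 did not pass. Nqo1, a quinone reductase, was at 104, 78.98 and 219 TPM and 85.8, 83.5 and 90.8 TPM (log2 fold change -0.33, SE 0.33, adjusted p = 0.56), and its vehicle means were 3.37 ± 1.38 (SD, n = 3) in media and 3.61 ± 1.36 (SD, n = 3) in KEAP1 KO CM. Hmox1, heme oxygenase 1, was at 989, 939.6 and 1394 TPM and 852, 756 and 587 TPM (log2 fold change -0.43, SE 0.18, adjusted p = 0.098), and without scaling between libraries its fall passed (-0.59, adjusted p = 0.0092). Gclm (-0.17, adjusted p = 0.75) and Prdx1 (0.11, adjusted p = 0.69) did not pass either. Txn1, thioredoxin, rose from 624, 627 and 743 TPM to 1411, 1444 and 2051 TPM (log2 fold change 1.44, SE 0.17, adjusted p = 2.8e-06). Of the 9 genes of NRF2 and its regulators Mafk, a small partner of NRF2, rose (0.76, SE 0.16, adjusted p = 0.0016) and Nfe2l1 was called higher in the full set but not without replicate 1 of KEAP1 KO CM/CDDO-Me (0.37, adjusted p = 0.066), while Nfe2l2, the gene of NRF2 (-0.03, adjusted p = 0.97), and Keap1 (0.55, adjusted p = 0.053) did not pass. The 2 regulators higher became 5 with the replicate block, with array weights and without the replicate 3 libraries of NRF2 KO CM, and 4 with the fibroblast covariate.

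Glycolysis and the hypoxia response leaned upwards, with 17 of 28 tested members higher and none lower (median 0.77), and 11 higher without scaling. With array weights 2 members were lower. With the replicate block, the fibroblast covariate or the compared groups alone 1 was lower. The count was also 1 without scaling and without the replicate 3 libraries of NRF2 KO CM. Hk3, a hexokinase of myeloid cells, rose from 182, 184 and 224 TPM to 1016, 1082 and 1105 TPM (log2 fold change 2.60, SE 0.33, adjusted p = 5.3e-06). Pfkp, a phosphofructokinase, rose from 51.8, 54.2 and 52.5 TPM to 181, 192 and 195 TPM (log2 fold change 1.98, SE 0.10, adjusted p = 5.6e-12). Vegfa, the angiogenic factor, rose from 68.8, 69.3 and 33.98 TPM to 172, 179 and 90.7 TPM (log2 fold change 1.51, SE 0.28, adjusted p = 0.00036). The glucose transporter Slc2a1 did not pass (0.38, adjusted p = 0.2). Of the tricarboxylic acid cycle list 3 of 21 were higher (Acod1, Cs and Sdhb), a count that fell to 1 without scaling and in 3 of the fits with a library left out (replicates 1 and 2 of media/CDDO-Me and replicate 3 of KEAP1 KO CM/CDDO-Me) and rose to 9 with array weights and 8 without the replicate 3 libraries of NRF2 KO CM, and 2 lower (Idh1 and Idh2). Idh1, cytosolic isocitrate dehydrogenase, fell from 208, 192 and 232 TPM to 73.01, 80.3 and 90.03 TPM (log2 fold change -1.21, SE 0.17, adjusted p = 1.9e-05). Of the integrated stress response 4 of 20 were higher (Mthfd2, Nupr1, Trib3 and Slc3a2; 8 with array weights) and 3 lower (Atf3, Phgdh and Slc7a5). Among them Mthfd2, a mitochondrial folate enzyme, rose (1.70, SE 0.23, adjusted p = 9.7e-06), and Atf3, a stress transcription factor, fell (-1.19, SE 0.14, adjusted p = 1.7e-06). Heat shock chaperones had 3 of 16 higher (Hspa8, Hspa5 and Hsp90b1) and 2 lower (Hspb1 and Bag3). The higher count was 1 without scaling and 8 with the fibroblast covariate. Hspb1, a small chaperone, fell from 60.5, 74.01 and 43.97 TPM to 13.9, 21.4 and 7.78 TPM (log2 fold change -1.90, SE 0.44, adjusted p = 0.0033). Over all genes tested 12.2% were higher and 10.2% lower. The counts of the cycle, stress response and chaperone lists lay near or a little above these shares.

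Cell cycle and DNA replication genes were lower in 12 of 33 tested members and higher in 1 (Cdkn1a; 2 with the replicate block), but 4 were lower without replicate 1 of KEAP1 KO CM/CDDO-Me, 7 without its replicate 3 and 7 without replicate 2 of media/CDDO-Me. The count was 23 with array weights, 20 with the compared groups alone and 21 without the replicate 3 libraries of NRF2 KO CM. The call of Cdkn1a was lost without scaling (0.66, adjusted p = 0.069) and without replicate 1 of KEAP1 KO CM/CDDO-Me (0.58, adjusted p = 0.066), while 4 to 6 members were higher with array weights, with the fibroblast covariate, with the compared groups alone and without the NRF2 KO CM libraries. Rrm2, a subunit of ribonucleotide reductase, fell from 35.8, 37.2 and 25.9 TPM to 7.58, 9.05 and 9.49 TPM (log2 fold change -1.65, SE 0.26, adjusted p = 8.1e-05). Mki67, the proliferation marker, did not pass (-0.56, adjusted p = 0.24). Matrix and angiogenesis genes had 6 of 22 higher and 5 lower (Mmp12, Pdgfa, Timp2, Mmp9 and Hbegf), and 3 lower without either replicate 1 or replicate 3 of KEAP1 KO CM/CDDO-Me. The shares of all genes, to be set beside the counts of both lists, were 12.2% higher and 10.2% lower. Mmp12, macrophage elastase, fell from the highest level of any gene of that list, 6095, 6426 and 7825 TPM, to 743, 640.4 and 844 TPM (log2 fold change -3.03, SE 0.30, adjusted p = 2e-07).

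The 12 genes of largest fall, by the same limits as the rises, held fewer members of the lists. Mamdc2, a secreted proteoglycan, fell from 122, 139 and 127 TPM to 1.03, 1.71 and 0.681 TPM (log2 fold change -5.85, SE 0.32, adjusted p = 3e-11). Cdkn1c, the cell cycle inhibitor p57, fell from 122, 158 and 125 TPM to 2.32, 3.48 and 2.21 TPM (log2 fold change -5.09, SE 0.30, adjusted p = 1.1e-10). Both were also lower in CM with vehicle, Mamdc2 by -2.44 (adjusted p = 3.3e-05) and Cdkn1c by -3.11 (adjusted p = 8.2e-07). Dhrs3, an enzyme that reduces retinaldehyde, fell from 276, 282 and 200.3 TPM to 18.5, 32.02 and 14.3 TPM (log2 fold change -3.40, SE 0.20, adjusted p = 1.2e-10). Bex1 fell from 13.2, 18.6 and 14.5 TPM to 0.812, 0.231 and 0.253 TPM (log2 fold change -3.45, SE 0.22, adjusted p = 3.9e-10), and Eef1a2, a tissue-restricted elongation factor, from 13.2, 24.1 and 24.3 TPM to 1.198, 1.61 and 0.905 TPM (log2 fold change -3.12, SE 0.30, adjusted p = 1.5e-07).

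Part of the largest falls are genes of contractile or matrix-forming cells. Actg2, a smooth muscle actin, fell from 120.1, 186 and 71.1 TPM to 11.7, 18.2 and 6.72 TPM (log2 fold change -3.11, SE 0.37, adjusted p = 2.2e-06). Cnn1, calponin of smooth muscle, fell from 20.3, 34.1 and 7.11 TPM to 1.04, 0.8699 and 0.1096 TPM (log2 fold change -3.41, SE 0.50, adjusted p = 3.4e-05). Ccdc80, a matrix protein, went from 100.1, 148 and 35.96 TPM to 10.8, 11.9 and 2.06 TPM (log2 fold change -3.27, SE 0.59, adjusted p = 0.00031), and by -2.60 without replicate 3 of KEAP1 KO CM/CDDO-Me. Tnfrsf11b, the decoy receptor osteoprotegerin, went from 39.2, 55.02 and 8.93 TPM to 2.14, 3.82 and 0.354 TPM (log2 fold change -3.26, SE 0.69, adjusted p = 0.0014), and by -3.97 without replicate 3 of media/CDDO-Me. In both groups the replicate 3 library was the lowest for Ccdc80 and Tnfrsf11b. The 12 fibroblast markers, all above 0 in all 6 libraries, summed to 2234, 3019 and 1162 TPM in media/CDDO-Me and to 844, 1018 and 242 TPM in KEAP1 KO CM/CDDO-Me. None rose while 3 fell, Acta2 (-2.85, SE 0.33, adjusted p = 2.1e-06), Postn (-2.62, SE 0.53, adjusted p = 0.001) and Pdgfrb (-1.24, adjusted p = 0.039), against 10.2% of all genes lower. The other 9 were not called, and they did not all lie lower. Dcn was at 24.1, 20.7 and 13.4 TPM in media/CDDO-Me and 25.0, 21.1 and 12.1 TPM in KEAP1 KO CM/CDDO-Me. Thy1 was at 4.22, 4.14 and 3.58 TPM and 19.9, 6.08 and 4.82 TPM. With the replicate block or array weights 6 were lower, and 1 was higher with array weights and 2 with the fibroblast covariate. The call of Pdgfrb was lost without a filter, with the covariate (-0.38, adjusted p = 0.22), without any 1 of the media/CDDO-Me libraries and without replicate 3 of KEAP1 KO CM/CDDO-Me (-0.85, adjusted p = 0.23). The summed ranges of the 2 groups did not overlap, but Acta2, Col1a1 and Col1a2 made up most of each sum. In bulk libraries fewer cells of a type and less RNA per cell cannot be told apart. An alternative fit, chosen after seeing the data, took the mean log2 level of these markers as a covariate, not their summed TPM. In it 3222 genes differed, 2446 of them shared with the 3069. The log2 fold change was -2.54 for Cnn1, -2.45 for Actg2, -2.18 for Acta2, -1.53 for Postn, -2.0 for Ccdc80, -1.86 for Tnfrsf11b, -5.40 for Mamdc2 and 10.55 for Cxcl9. Other genes changed sign, Col1a1 from -1.25 to 0.13, Cxcl12 from -1.56 to 0.49 and Il1rn from -0.85 to 0.84. None of these was called without the covariate. Acta2, Postn and Col1a1 belong to the covariate, and the summed marker level differed between the groups. Whether the falls are separate from the level of these cells was not tested.

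**Figure D4:**
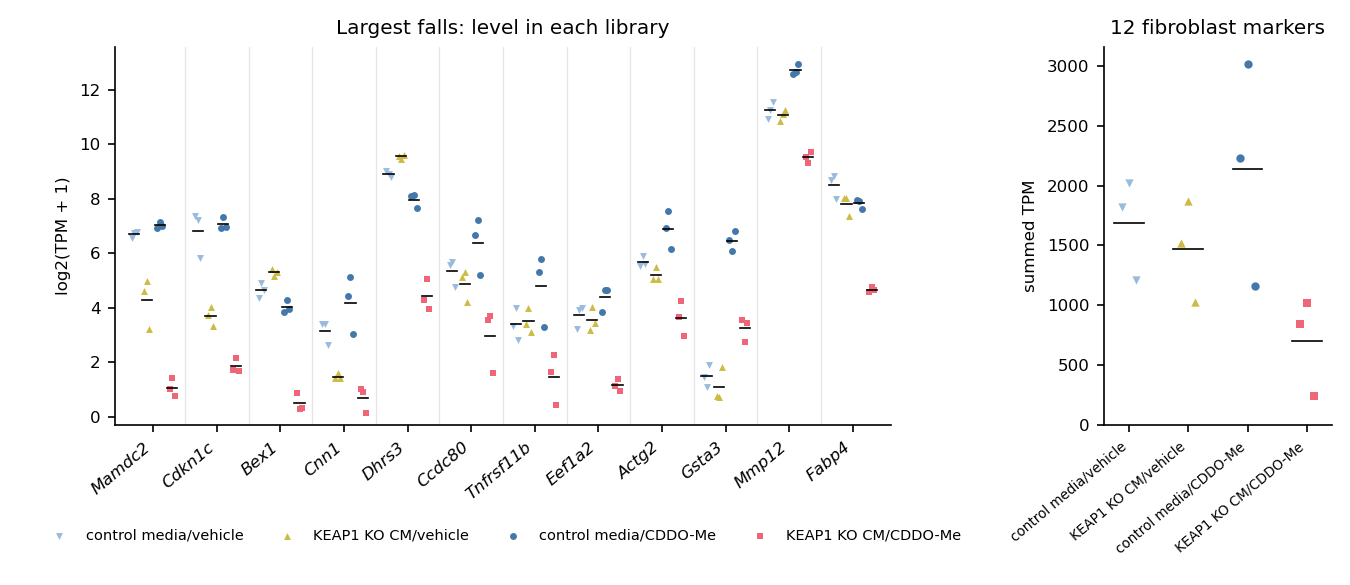
Left, level of the 12 genes of largest fall in each library as log2(TPM + 1), with a bar at the mean of the 3 libraries of a group. Right, summed TPM of the 12 fibroblast markers per library and the mean, with KEAP1 KO CM/CDDO-Me at 242 to 1018 TPM and media/CDDO-Me at 1162 to 3019 TPM.

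Markers of other cell types were low, and of these the dendritic cell set changed most. The dendritic cell markers summed to 1.13, 1.63 and 1.63 TPM in media/CDDO-Me and to 47.3, 56.8 and 86.5 TPM in KEAP1 KO CM/CDDO-Me. Nearly all of this was Clec9a, a lectin of cross-presenting dendritic cells, which went from 0.0798, 0.0923 and 0.0416 TPM to 43.8, 53.9 and 83.4 TPM (log2 fold change 5.90, SE 0.20, adjusted p = 9.5e-15). Xcr1, a receptor of the same cells, was at 0.0735, 0.0967 and 0.1802 TPM and 2.27, 1.91 and 2.04 TPM (log2 fold change 1.54, SE 0.14, adjusted p = 5.2e-08), whereas 5 of the 7 markers stayed below 1 TPM in all 3 KEAP1 KO CM/CDDO-Me libraries. T and NK cell markers summed to 6.73, 7.51 and 8.48 TPM in media/CDDO-Me and to 5.005, 5.34 and 6.05 TPM in KEAP1 KO CM/CDDO-Me, B cell markers to at most 1.67 TPM and carcinoma markers to at most 2.20 TPM in any of the 6 libraries. Neutrophil markers summed to 32.8, 51.98 and 35.3 TPM and 65.7, 76.2 and 71.97 TPM, mast cell and basophil markers to 14.98, 10.4 and 9.85 TPM and 4.22, 4.85 and 4.58 TPM, and erythroid and platelet markers to at most 3.77 TPM. Of these lists 1 T and NK cell gene and 1 mast cell gene were called lower and 1 neutrophil gene higher, each call lost when a library was left out. Of the macrophage markers Fcgr1 and Mertk were higher, Cd68, a lysosomal protein, was lower (-0.89, SE 0.18, adjusted p = 0.00081), and Csf1r, the M-CSF receptor, did not pass (-0.17, adjusted p = 0.68).

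The same medium had a different effect without the drug. With vehicle, KEAP1 KO CM differed from media at 1087 genes (7.96%), and the change in that effect under CDDO-Me, which shares no library between the effects, was called for 2014 genes (14.7%), 1145 higher and 869 lower. The interferon-inducible GTPases had 2 of 18 members higher with vehicle (Iigp1 and Ifi47). The effect was called higher under CDDO-Me for all 18, of which 3 were listed at 0 in media/CDDO-Me. The antiviral list had 2 higher (Zbp1 and Usp18) and 1 lower (Ifit3) with vehicle, and 34 of 39 with a higher effect under CDDO-Me. MHC class I had none called with vehicle and 18 of 23 with a higher effect, and class II none with vehicle, 10 of 17 higher and 1 lower (Ctsl). Cell cycle genes had 5 of 33 higher with vehicle (Ccne1, Mcm3, Mcm4, Rrm1 and Tyms), and for 18 the effect was lower under CDDO-Me. Over all genes 978 rose under CDDO-Me with a higher effect than with vehicle, 514 fell with a lower one, 339 rose with vehicle with an effect that was lower under CDDO-Me and 172 fell with vehicle with an effect that was higher. The direction was opposite and called in both for 95 genes that rose with vehicle and fell under CDDO-Me and for 77 that did the reverse. A rise under both was called for 173 genes and a fall under both for 190.

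Media of the other LL2 lines under CDDO-Me place the KEAP1 KO effect. Compared directly with NRF2 KO CM/CDDO-Me, KEAP1 KO CM/CDDO-Me differed at 2858 genes (20.9%), 1660 higher (12.2%) and 1198 lower (8.77%). In that comparison all 18 GTPases, 36 of 39 antiviral genes and 22 of 23 class I genes were higher and none lower. The 18 include the 3 listed at 0 in media/CDDO-Me. Cxcl9 was at 0.0394, 0.149 and 0.0546 TPM and Gbp2 at 16.9, 19.2 and 18.6 TPM in the 3 NRF2 KO CM/CDDO-Me libraries, near the levels in control media. H2-Ab1 was at 168, 171 and 253 TPM and Mmp12 at 4935, 5273 and 9397 TPM there, and neither range touched that of KEAP1 KO CM. The NRF2 targets were lower than in NRF2 KO CM in 13 of 36 members and higher in 2 (Txn1 and Gstp1). The macrophages carried intact NRF2 in all groups, and the 3 NRF2 KO CM libraries include the replicate with few genes above 0.

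Compared with WT CM/CDDO-Me, 7 genes differed (0.0512%), 6 higher (0.0439%) and 1 lower (0.00732%), with 570 genes at an unadjusted p under 0.05, and 28 differed with the replicate numbers as a block. Cxcl9 was at 1792, 1458 and 981 TPM and Gbp2 at 4494, 4152 and 5675 TPM in WT CM/CDDO-Me, ranges that overlap those of KEAP1 KO CM/CDDO-Me. A count this low does not show that the media act alike. Among the 7, Heph, a ferroxidase, was higher in KEAP1 KO CM (log2 difference 1.34, SE 0.18, adjusted p = 0.0031), with 1.62, 1.76 and 2.93 TPM in WT CM and 5.95, 8.29 and 5.99 TPM in KEAP1 KO CM. Its level in media/CDDO-Me was 4.82, 6.06 and 7.92 TPM, and KEAP1 KO CM did not pass against media (0.24, adjusted p = 0.41). For Heph it was thus WT CM that lay apart from control media. F5, coagulation factor V, was higher too (1.07, SE 0.14, adjusted p = 0.0031), with 0.543, 0.583 and 0.728 TPM and 2.89, 1.97 and 2.19 TPM, as were the metallothionein gene Mt3 (1.83), Rgs16, which shortens G protein signals (1.40), Ptn (2.16) and the pseudogene Smt3h2-ps4 (2.32). Against media/CDDO-Me, F5, Mt3, Ptn and Smt3h2-ps4 were called higher in KEAP1 KO CM. Rgs16 did not pass there (-0.58, adjusted p = 0.084), with 8.01, 12.8 and 10.99 TPM in media/CDDO-Me, 6.22, 7.4 and 4.56 TPM in KEAP1 KO CM and 1.93, 2.11 and 1.07 TPM in WT CM. Gbp2b, at 253, 177 and 213 TPM in WT CM against 111, 91.8 and 153 TPM, was lower (-0.88, SE 0.16, adjusted p = 0.043). These 7 calls depended on the fit, and with the compared groups alone none passed.

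**Figure D5:**
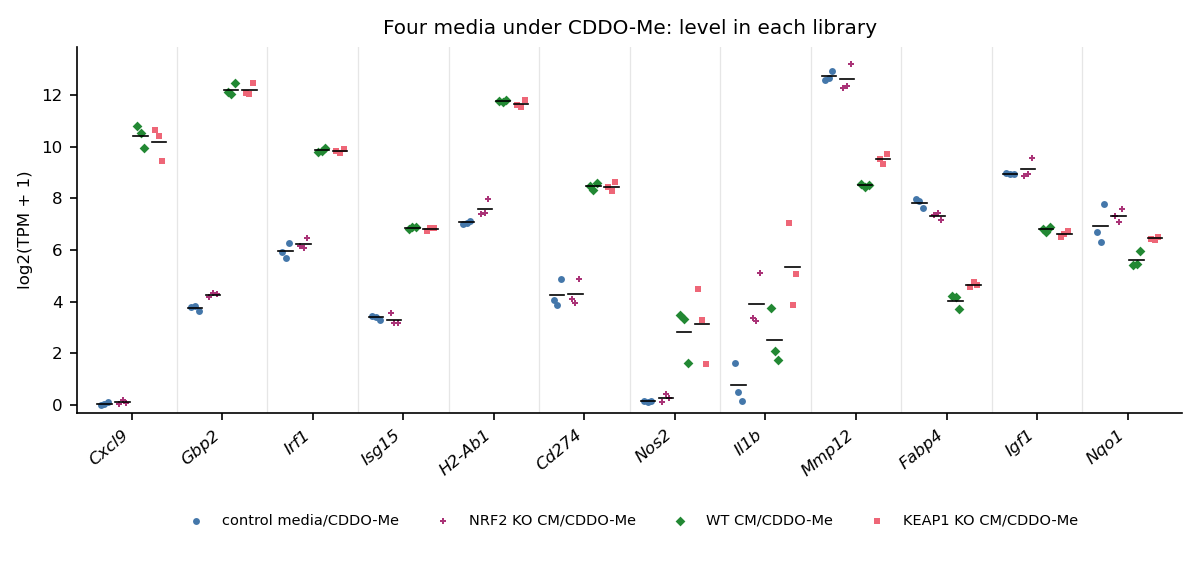
Level of 12 named genes under CDDO-Me in control media, NRF2 KO CM, WT CM and KEAP1 KO CM, as log2(TPM + 1) per library with a bar at the mean of 3. For Cxcl9, Gbp2, Irf1, Isg15, H2-Ab1 and Cd274 the WT CM and KEAP1 KO CM libraries lie together and above the control media and NRF2 KO CM libraries, and for Mmp12, Fabp4 and Igf1 they lie together and below them.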

How the data were processed

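Poly-A RNA libraries of BMDMs were sequenced for 3 samples in each of 8 groups, and groups and replicate numbers were taken from the sample labels. According to the submitters' processing notes and the methods of the study, the authors quantified reads with kallisto on GRCm39 transcripts, and deposited TPM values for 35770 gene names. TPM keep no read numbers (the totals of 999365 to 999801 are set by the unit), so no interval or floor that needs depth is given and no model of counts was used. A line without a gene name (0.02% to 0.064% of a library) was left out. Reads of near-identical genes may be divided by the quantification in ways that cannot be checked here.

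TPM were divided by factors from unweighted trimmed means of M values (trims of 30% on M and 5% on A, factors 0.910 to 1.11), and log2 was taken after a pseudocount of 1. Each gene that exceeded 1 TPM in 3 or more of the 24 libraries was tested with limma 3.58.1 in R 4.3.3, with group as the only term, 16 residual degrees of freedom and a mean-variance trend. All p-values from limma are two-sided and adjusted by the Benjamini-Hochberg method over 13661 genes. Comparisons of KEAP1 KO CM with media, NRF2 KO CM and WT CM share their KEAP1 KO CM libraries, and the interaction contrast compared the medium effect under CDDO-Me with that under vehicle. The fit was tested on simulated data.

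The comparison, the 28 gene lists and 9 marker lists, and the motifs were chosen with earlier results of these data known, so the lists carry no test of their own. Named genes were the 12 largest rises and 12 largest falls without overlap that reached a mean of 5 TPM, 6 interactions in each direction, up to 4 members a list by adjusted p, and genes of the study's questions. Some of these are not reported here. Others were chosen after their values were seen. Same-numbered samples of the compared groups deviated together from their group means (correlations of 0.13, 0.39 and 0.48 over genes). The mean for other pairs, -0.16, is largely set by taking deviations from group means and is no separate comparison. A fit with the replicate number as a block was therefore set beside the results. No library was identical to another. Promoters and coordinates come from the GRCm39 genome and its GENCODE annotation. Figures were drawn with matplotlib 3.10.9.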

Additional observations from a re-analysis of the deposited data

Results flagged for a closer look

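The effect of KEAP1 KO CM against control media differed between CDDO-Me and vehicle for 2014 genes by the interaction contrast of limma, and the values below are the effect under CDDO-Me minus that under vehicle on the log2 scale. The largest positive differences were in chemokine and GTPase genes, Cxcl9 (10.38, SE 0.34, adjusted p = 1.4e-14), Cxcl10 (10.16, SE 0.45, adjusted p = 2.2e-12), Gbp4 (9.37, SE 0.31, adjusted p = 2e-14), Iigp1 (9.20, SE 0.23, adjusted p = 4.3e-16), Tgtp1 (8.85, SE 0.61, adjusted p = 2.4e-09) and Gbp2 (8.61, SE 0.32, adjusted p = 1e-13). With vehicle the mean level of these genes was at most 9.17 TPM in media and at most 9.15 TPM in KEAP1 KO CM, the highest being Gbp2 in both.

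Negative differences were led among the genes of the study's questions by Retnla (-10.56, SE 0.25, adjusted p = 3.3e-16), Arg1 (-9.68, SE 0.30, adjusted p = 1.1e-14) and Mrc1 (-3.67, SE 0.35, adjusted p = 2.6e-07). Among genes that also fell under CDDO-Me they were led by Lipn, a lipase (-5.88, SE 0.64, adjusted p = 1.5e-06), Ms4a4a, a membrane protein of macrophages (-5.84, SE 0.84, adjusted p = 4.6e-05), Ear2, a ribonuclease (-5.69, SE 0.41, adjusted p = 4.3e-09), Ccl9 (-5.45, SE 0.40, adjusted p = 5.8e-09), Cbr2, a carbonyl reductase (-4.13, SE 0.61, adjusted p = 6.7e-05), and Bex1 (-4.09, SE 0.32, adjusted p = 1.1e-08). Lipn rose in CM with vehicle from 4.66, 4.34 and 4.205 TPM to 64.2, 63.9 and 62.4 TPM and was at 7.11, 5.07 and 15.3 TPM and 0.151, 0.199 and 2.91 TPM under CDDO-Me. Ms4a4a was at 43.04, 46.2 and 113 TPM and 741, 491 and 1264 TPM with vehicle and at 65.4, 51.8 and 79.3 TPM and 11.3, 4.92 and 27.7 TPM under CDDO-Me, where its fall was not called without replicate 2 of KEAP1 KO CM/CDDO-Me (-1.61, adjusted p = 0.069).

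Further differences were called for H2-Ab1 (5.36, SE 0.45, adjusted p = 4.3e-08), Cd274 (3.51, SE 0.43, adjusted p = 5.3e-06), Nos2 (3.01, SE 0.69, adjusted p = 0.0045), Il6 (2.00, SE 0.62, adjusted p = 0.034) and B2m (1.87, SE 0.51, adjusted p = 0.016). No group of 4 or more samples exists, so no sample was tested as an outlier.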

How the results depend on the processing

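The count of genes changed between KEAP1 KO CM and media under CDDO-Me (3069) stayed within 1.5 times under most settings and became 6077 with array weights and 5418 without the replicate 3 libraries of NRF2 KO CM. The interaction count (2014) became 5377, 4039 and, with the compared groups alone, 3450. The count against NRF2 KO CM (2858) became 5520, 4622 and 1541 under the same 3 settings. Leaving out 1 library gave 2357 to 2847, 1657 to 1937 and 2143 to 2801 genes for these comparisons. Without scaling, the share of calls that were higher fell from 54.5% to 37.4%, from 56.9% to 40.5% and from 58.1% to 37.5%.

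The 7 genes against WT CM became 19 without a filter, 3 with TPM above 5 and 3 with a pseudocount of 0.1, 23 with a pseudocount of 5, 11 without a trend, 213 with array weights, 15 with the fibroblast covariate, 48 without the NRF2 KO CM replicate 3 libraries and 0 with the compared groups alone. Without 1 library they ranged from 2, without replicate 1 of KEAP1 KO CM/CDDO-Me, to 25, without its replicate 3. The cause was not tested. With the replicate block they became 28, and the other counts 4094, 2919 and 3913, each within 1.5 times, and all 3069 genes were kept. The block also moved 11 counts of list members by over 1.5 times, all upwards, to 2 lower CXC chemokines, cytokines and Toll-like receptors, 1 lower class II and glycolysis gene, 6 lower fibroblast markers, 2 higher sterol, fatty acid and cell cycle genes, 4 higher NRF2 targets and 5 higher NRF2 regulators.

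Of the values of single genes, 133 settings lost a call, 97 gained one and none reversed. Beside the counts of list members given in the report, those that moved by over 1.5 times when a library was left out were macrophage markers higher (from 2 to 1 without replicate 1 of KEAP1 KO CM/CDDO-Me), and, without its replicate 3, 1 glycolysis gene lower and 1 fibroblast marker higher in place of 0. The read depth of each library is unknown, so the precision of low values cannot be stated, and 3 samples a group limit what smaller differences can be called.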
